A study of Homo sapiens with 3 samples.

Results

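The BCL2 family genes described here are 10 genes that set whether a cell survives or dies through its mitochondria: BCL2, BCL2L1, MCL1, BCL2A1, BAX, BAK1, BCL2L11, BBC3, PMAIP1 and BID. They were chosen by gene name, and each had 1 row among the 60605 genes of the deposited table. The RNA was from RCC4, an established cell line of human clear cell renal carcinoma without working VHL, transduced beforehand with lentiviral Cas9. The cells of each of the 3 libraries had received IFN-gamma (1000 U/mL) and TNF (25 ng/mL) together for 24 h, and each library is a biological replicate made from 3 flasks. There is thus 1 group, no untreated cells were analysed here, and what follows describes levels under both cytokines, with no test between groups and no response to them.

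Proteins of this family meet at the outer mitochondrial membrane. BAX and BAK1 form the pores that let cytochrome c out and so start the caspase cascade. The survival proteins BCL2, BCL2L1 (BCL-XL), MCL1 and BCL2A1 (BFL1) hold the pore formers and their activators in check. The BH3-only proteins BCL2L11 (BIM), BBC3 (PUMA), PMAIP1 (NOXA) and BID sense stress and bind the survival proteins or activate the pore formers directly. BID links death receptors such as the TNF receptor to mitochondria after cleavage by caspase-8, and PMAIP1 binds MCL1 and BCL2A1 in particular.

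The feature that joins these proteins is the BH3 segment, the helix by which members bind one another. The coding stretches below are shown because they carry its core, and with it the identity of the family. They were read from the APPRIS principal transcripts of GENCODE 29 (GRCh38) by searching the annotated reading frame for leucine, any 3 residues, glycine or alanine, then aspartate. The capitals mark the 6 codons of that core, with 12 coding bases on each side, printed along the gene's own strand. Each of 9 members had 1 match. BCL2A1 had none, which says only that these letters are not in its reading frame. This pattern was narrowed after the matches of a wider one were seen, which also took serine at the fifth position and glutamate at the last; the wider one matched 6 members once, MCL1 and BID 2 times, BAK1 3 times and BCL2A1 not at all.
BCL2, chr18:63318349-63318390, minus strand: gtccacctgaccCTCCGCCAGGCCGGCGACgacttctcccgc
BCL2L1, chr20:31721922-31721963, minus strand: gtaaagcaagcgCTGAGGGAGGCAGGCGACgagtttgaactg
MCL1, chr1:150578865-150578906, minus strand: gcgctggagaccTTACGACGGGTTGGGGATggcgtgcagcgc
BAX, chr19:48955775-48955816, plus strand: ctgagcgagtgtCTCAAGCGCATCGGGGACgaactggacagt
BAK1, chr6:33575387-33575428, minus strand: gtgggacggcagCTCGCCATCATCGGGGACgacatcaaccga
BCL2L11, chr2:111150091-111150132, plus strand: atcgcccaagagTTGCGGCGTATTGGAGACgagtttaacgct
BBC3, chr19:47226579-47226620, minus strand: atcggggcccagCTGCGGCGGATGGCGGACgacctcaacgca
PMAIP1, chr18:59902661-59902702, plus strand: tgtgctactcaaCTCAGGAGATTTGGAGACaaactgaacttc
BID, chr22:17739415-17739456, minus strand: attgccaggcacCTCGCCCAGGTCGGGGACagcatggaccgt

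Total gene reads were 29199806 in replicate 1, 26264283 in replicate 2 and 33458691 in replicate 3. Replicate 1 stood apart from the other libraries along the GC content of transcripts. Over 10522 protein-coding genes whose mean reached 1 CPM (counts scaled by TMM to a common library size), replicate 1 was compared with the average of the other libraries, and the median difference (log2) ran from -1.63 in the lowest of 20 GC bins to 0.42 in the highest. All 7 renal epithelial markers were detected, among them PAX8, PAX2, KRT8 and CA9, the last a target of the hypoxia pathway. Over all protein-coding genes 51.4% were detected, at 1 CPM or more in every library. Of 12 leukocyte, endothelial and fibroblast markers 1 was detected, ITGAM at 0.256 RPKM, and PTPRC, CD3E, COL1A2 and PDGFRA were among those listed at 0. Their summed level was at most 0.432 RPKM for leukocytes, 0.0721 for endothelium and 0.00224 for fibroblasts in any library. The spans of other genes take in 69.4% of the exon length of PDGFRA, so its zero is given only as listed. For PAX8, which was detected, they take in 95.7%. In bulk RNA, fewer cells expressing a gene and less RNA per cell cannot be told apart.

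Per kilobase of exon and within this family, treated RCC4 cells carried high mean levels of BCL2L1, MCL1 and BAX RNA. BBC3 and BID were intermediate, and BCL2A1 and BCL2 were low. PMAIP1 was uneven between libraries and could not be ranked against BAX or BBC3. The mean levels of PMAIP1, BBC3, BID and BCL2A1 were at or above those of 97.2%, 93.0%, 92.8% and 73.1% of protein-coding genes. Of the 10 members 8 were detected at 1 CPM or more in every library, against 51.4% of 19861 protein-coding genes, and 7 were detected at 10 CPM. BAK1 and BCL2L11 were listed at 0 in every library. Levels below are RPKM, the CPM per kilobase of all annotated exons of a gene, so that genes of different length can be set side by side. They count every isoform of a gene together, so the long and short forms of BCL2L1, MCL1 and BCL2L11, which differ in activity, are not separated.

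**Figure D1:**
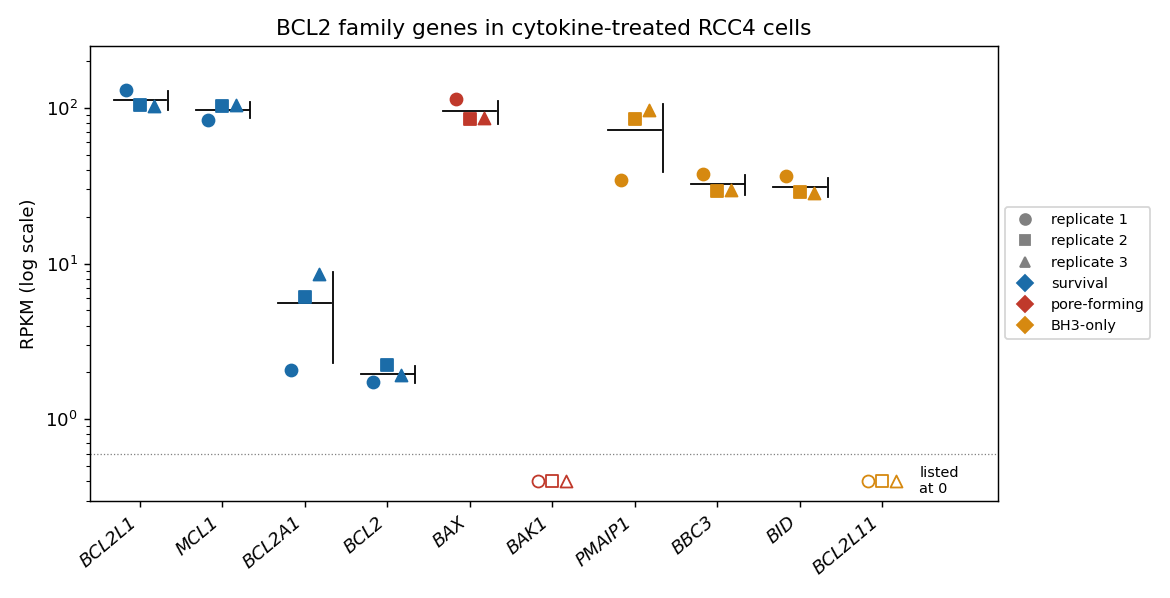
Level of each of the 10 members in RPKM (log scale) in replicates 1 to 3, coloured by role, with the mean as a horizontal bar and the SD (n = 3) as a vertical bar. BCL2L1, MCL1 and BAX lie near 100 RPKM (means 112, 97.0 and 95.1), BCL2 near 2 (mean 1.96), and the open symbols are BAK1 and BCL2L11, listed at 0.

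Among the survival genes, BCL2L1 and MCL1 were the abundant ones. BCL2L1, which protects the mitochondria of many epithelial and carcinoma cells, had 11722, 9364 and 11876 reads and stood at 130.3, 104 and 103 RPKM in replicates 1, 2 and 3. MCL1, a short-lived survival protein with a rapid turnover of RNA and protein, had 9970, 12133 and 15946 reads, or 84.0, 102 and 105 RPKM. BCL2L1 was highest in replicate 1 and MCL1 lowest there, so their order turned on the library. Their means were 112 ± 15.4 and 97.0 ± 11.4 RPKM (SD, n = 3), and the within-library log2 ratio BCL2L1/MCL1 was 0.63, 0.03 and -0.03, which did not exceed the replicate spread. A ratio is called past that spread here when all libraries share a sign and the mean is over 2 SD. Where 1 library is left out, the SD rests on the 2 that remain, so such a call has less behind it.

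BCL2, the founding member of the family, had the lowest mean RPKM of the 8 detected genes, though it could not be ranked against BCL2A1. It had 557, 711 and 788 reads, or 1.74, 2.22 and 1.93 RPKM, a mean of 1.96 ± 0.243 RPKM. BCL2L1 exceeded it 54.4-fold (log2 5.77 ± 0.34) and MCL1 exceeded it 47.0-fold (log2 5.56 ± 0.12), both past the replicate spread. The sizes of these ratios rest on the length used: BCL2L1/BCL2 was log2 6.58 with exons outside other genes' spans, 4.86 with the whole gene span and 4.004 without length scaling, and MCL1/BCL2 was 8.55 with the span and 4.19 without length scaling. The mean level of BCL2 was at or above that of 60.3% of protein-coding genes, against 98.5% for BCL2L1.

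BCL2A1, a survival gene known from blood cells and as a target of NF-kappa-B, was low and uneven. It had 61, 181 and 323 reads, or 2.06, 6.12 and 8.53 RPKM, and it was lowest in replicate 1. Its mean was 5.57 ± 3.27 RPKM, and it was the detected member below 10 CPM, at 2.25, 6.66 and 9.28 CPM. MCL1 exceeded BCL2A1 19.8-fold (log2 BCL2A1/MCL1 -4.31 ± 0.87), past the replicate spread, and the ratio was -7.07 with the gene span and -6.32 without length scaling. The ratio BCL2A1/BCL2 was above 0 in each library, at log2 0.23, 1.42 and 2.09, but did not exceed the spread; it did without replicate 1, at 1.76, and after GC correction, at 1.25 ± 0.49. Without length scaling the ratio turned to -2.12, since BCL2 has the longer exons. PTPRC, the leukocyte marker, was listed at 0 in each library.

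The RefSeq window of BCL2A1 (GRCh38.p14, 300 bases around its start) was searched on both strands for motifs of the pathways that IFN-gamma and TNF engage. It held 1 GAS match (TTCNNNGAA, the site of STAT dimers) and 1 ISRE match (the interferon-stimulated response element, read by IRF proteins), 168 and 133 bases before the start, printed with 10 bases of flank and the match in capitals.
GAS, chr15:79971346-79971374, minus strand: aggaagtggcTTCTCTGAAacattttcct
ISRE, chr15:79971310-79971339, minus strand: cattttaaacTTTCTCTTTCatacatgaca
In GENCODE 29 the same bases lie in the untranslated part of the first exon of a longer transcript, which starts upstream of the RefSeq start. A GAS match occurs in 7.66% and an ISRE match in 3.57% of 35116 such windows of 300 bases. Counted by gene, with a match in any of its windows, the shares are 9.38% and 4.38% of 27305 genes. Of the 9 members with a window in the table, BBC3 was the other one with a match, an overlapping pair of ISRE matches downstream of its start. The NF-kappa-B decamer, present in 11.3% of windows and for 13.3% of genes, was found in none of the members' windows. A match is a description of letters, and the deposited RNA values do not bear on binding.

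Of the pore-forming genes, BAX was abundant and BAK1 was listed at 0. BAX had 7972, 5990 and 7797 reads, or 113, 85.2 and 86.6 RPKM, a mean of 95.1 ± 15.9 RPKM, and was highest in replicate 1. BCL2L1, which restrains BAX, exceeded it by a small and steady margin of log2 0.20, 0.29 and 0.25 (mean 0.25 ± 0.04, or 1.19-fold), past the replicate spread. The size and sign of that ratio rest on the length used. It was log2 1.05 with exons outside other spans, 0.60 without length scaling and -2.47 with the whole gene span. Per kilobase of exon MCL1 and BAX were near equal with opposite signs between libraries, at log2 -0.43, 0.26 and 0.28. Without replicate 1 the ratio MCL1/BAX was 0.27 and past the spread. With the whole gene span it was 1.22 and past the spread, and without length scaling it was 0.79 and not past it. Unlike BCL2L1 and BAX, MCL1 was lowest in replicate 1.

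Among the BH3-only genes PMAIP1 had the highest mean and the least even values. It had 2095, 5149 and 7540 reads, or 34.5, 84.8 and 97.0 RPKM, with a mean of 72.1 ± 33.1 RPKM. In replicate 1 it was level with BBC3 and BID, and in replicates 2 and 3 it was near its partner MCL1. The log2 ratio MCL1/PMAIP1 was 1.28, 0.27 and 0.11 and did not exceed the replicate spread. It was past the spread with the whole gene span, at 1.27, and without length scaling, at 1.52. Without replicate 1 the log2 ratio BBC3/PMAIP1 was -1.61 and past the spread, against -1.04 ± 1.01 over all libraries.

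BBC3 and BID were steadier, and nearly equal per kilobase of exon. BBC3, which binds every survival member, had 3243, 2543 and 3287 reads, or 37.6, 29.4 and 29.7 RPKM. BID, the link from caspase-8 to the mitochondria, had 4382, 3506 and 4367 reads, or 36.3, 29.03 and 28.2 RPKM. Their means were 32.2 ± 4.61 and 31.2 ± 4.44 RPKM, and the log2 ratio BID/BBC3 was -0.05, -0.02 and -0.07, which did not exceed the spread; without replicate 2 it did, at -0.06, as it did with exons outside other spans, at -0.08. With the whole gene span the ratio was -1.31 ± 0.03 and past the spread, and without length scaling it was 0.44. Both were highest in replicate 1. BID exceeded BCL2A1, the next gene in order, by log2 2.67 ± 1.24, past the spread, though not when replicate 2 was left out (2.89 with an SD of 1.67); it was 1.97 without replicate 1 and 4.70 without length scaling.

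The order of mean levels was BCL2L1, MCL1, BAX, PMAIP1, BBC3, BID, BCL2A1 and BCL2. Of the 7 neighbouring pairs in that order, 1 differed past the replicate spread, BID and BCL2A1. Over all 3 libraries the top 4 genes could not be ranked against their neighbours, nor BBC3 against PMAIP1 or BID, nor BCL2 against BCL2A1. Without replicate 1 the log2 ratio BAX/PMAIP1 was -0.08 in place of 0.52 ± 1.04. Of 15 pairs fixed for comparison, 10 could be formed and 4 of these were past the spread: BCL2L1/BCL2, MCL1/BCL2, BCL2A1/MCL1 and BCL2L1/BAX. The other 5 include BAK1 or BCL2L11.

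Both members listed at 0 lie wholly within the span of another gene on the opposite strand. BAK1 (chromosome 6, 33572547 to 33580293, minus strand) lies inside GGNBP1, a pseudogene spanning 33540046 to 33589026 on the plus strand. BCL2L11 (chromosome 2, 111119378 to 111168447, plus strand) lies inside MIR4435-2HG, a long noncoding RNA gene spanning 111036776 to 111523376 on the minus strand. All exons of both members were inside these spans, while 4.11% of the exon length of BAK1 and 10.9% of that of BCL2L11 overlapped exons of the other gene. GGNBP1 had 9, 4 and 22 reads and MIR4435-2HG had 1368, 1822 and 2239, and whether any came from the members was not tested.

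Zeros were the usual value for genes so placed. Of 2113 protein-coding genes with all exons inside other spans, 88.2% were listed at 0 in every library and 1.94% were detected. Among the 9483 with no exon inside other spans, 27.2% were listed at 0 and 52.4% were detected, and among those with part of their exons inside, 62.8% were detected. The zeros of BAK1 and BCL2L11 are therefore given only as listed, and no floor or fold was formed from them; they enter the sums and shares of the family at 0.

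**Figure D2:**
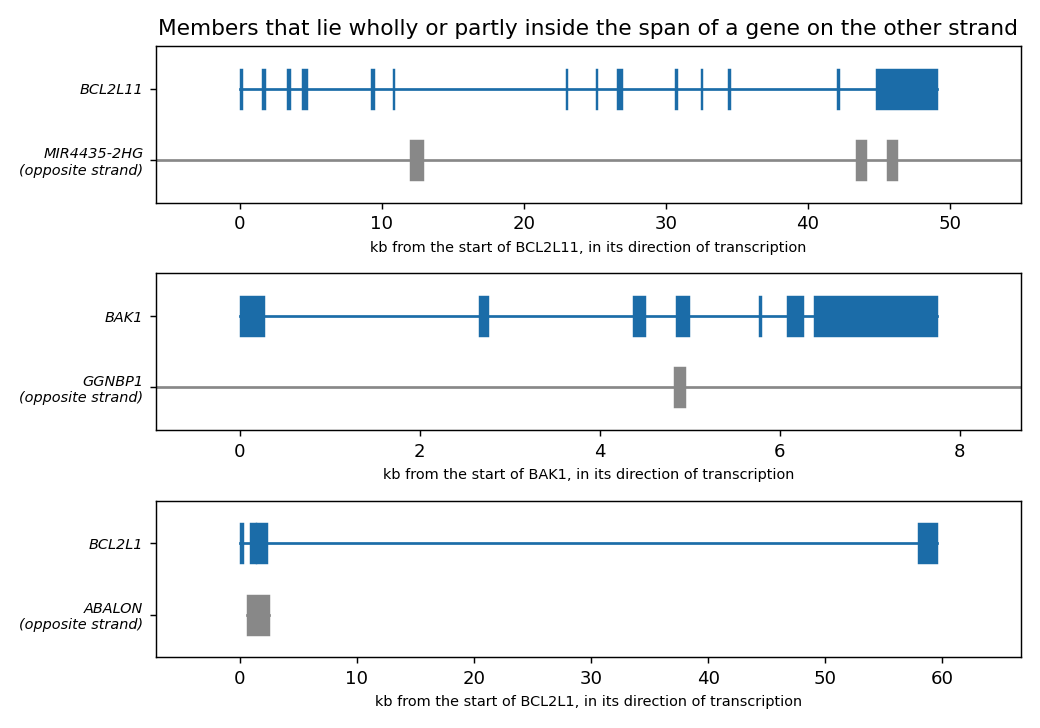
Exons (boxes) and spans (lines) of BCL2L11, BAK1 and BCL2L1 (blue) and of the gene on the opposite strand (grey), by distance in kb from the member's start. BCL2L11 and BAK1 lie wholly inside MIR4435-2HG and GGNBP1, whose lines run past both edges, while ABALON covers 43.0% of the exon length of BCL2L1.

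BCL2L1 is partly covered as well. ABALON, a noncoding RNA gene on the opposite strand (chromosome 20, 31721507 to 31723409), overlaps 43.0% of its exon length, including the BH3 stretch printed above, and ABALON was listed at 0 in each library. Divided by the 1890 bases of exon outside other spans in place of 3314, BCL2L1 stood at 197 ± 27.1 RPKM. On that scale the ratio BCL2L1/MCL1 was log2 1.02 and past the replicate spread, and BCL2L1/BAX was 1.05. Of the other detected members, BBC3 had 2.52% of its exon length inside other spans, MCL1 0.0458%, and BCL2, BCL2A1, BAX, PMAIP1 and BID none.

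The sources used here do not say whether reads from introns were counted. A level per kilobase of the whole gene span was therefore set beside the level per kilobase of exon. The span is 196783 bases for BCL2 against 11765 of exon, but 5188 against 4371 for MCL1. With the span as length, MCL1 led at 81.7 ± 9.57, followed by PMAIP1 at 37.0 ± 16.98, BAX at 35.2 ± 5.90 and BBC3 at 8.58 ± 1.23 CPM per kilobase. BCL2L1 was then at 6.26 ± 0.86 and BID at 3.41 ± 0.486, and the ratios BCL2L1/MCL1 and BCL2L1/BAX turned to log2 -3.69 and -2.47. BCL2 had the lowest mean of the 8 under either length, at 0.117 ± 0.0145 CPM per kilobase of span.

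**Figure D3:**
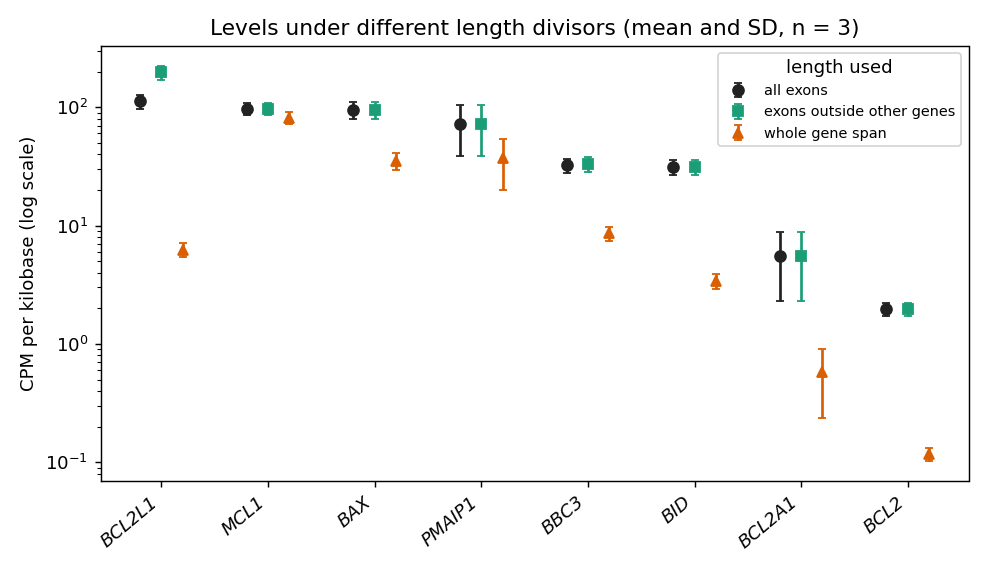
Mean level and SD (n = 3 libraries) of the 8 members with reads, in CPM per kilobase on a log scale, with all exons, exons outside other genes' spans, or the whole gene span as the length. BCL2L1 moves most between the exon-based values (112 and 197), and it is below MCL1, PMAIP1, BAX and BBC3 when the span is used (6.26).

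The summed level of the 10 members was nearly the same in each library, at 440, 443 and 460 RPKM. Survival genes made up 49.6%, 48.4% and 47.5% of it, a mean of 48.5% ± 1.05 (SD, n = 3). BAX, the pore former with reads, made up 25.8%, 19.2% and 18.8%, and the BH3-only genes 24.6%, 32.3% and 33.7%. Within the survival share BCL2L1 was higher in replicate 1, at 29.6% against 23.5% and 22.4%, and MCL1 lower, at 19.1% against 23.1% and 22.8%. Shares of one sum are tied, so a higher share of one role is matched by lower shares elsewhere. Within the BH3-only genes the shift lay with PMAIP1, at 7.85%, 19.1% and 21.1% of the sum. BAK1 and BCL2L11 enter these shares at 0, so the pore-forming and BH3-only shares leave out whatever RNA of those genes was present.

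**Figure D4:**
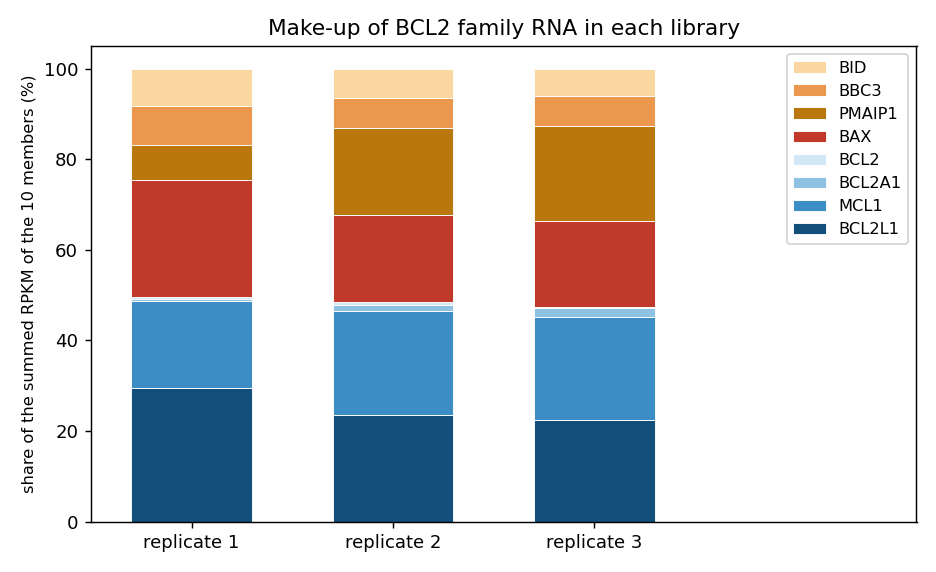
Share of the summed RPKM of the 10 members held by each gene in replicates 1, 2 and 3 (percent, bars start at 0). Survival genes (blues) fill 49.6%, 48.4% and 47.5%, and PMAIP1 fills 7.85% in replicate 1 against 19.1% and 21.1% in the others.

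Compared across libraries without regard to length, 2 of the 8 measured members, BCL2A1 and PMAIP1, were more than 2-fold lower in replicate 1 than in the mean of replicates 2 and 3, and none was more than 2-fold higher. Over the 10522 genes, 14.6% were more than 2-fold lower and 0.2% more than 2-fold higher. BCL2A1 was 3.55-fold lower (log2 -1.83) and PMAIP1 was 2.63-fold lower (log2 -1.40). In all, 4 members were lowest in replicate 1 without overlap and 4 were highest, where 43.1% and 49.2% of all genes were. The median log2 ratio was 0.04 over the 8 members and 0.05 over all genes.

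The members that were lower in replicate 1 were those with the lower GC content. BCL2A1, PMAIP1, MCL1 and BCL2 have a transcript GC content of 40.3%, 43.6%, 45.7% and 45.7%, and all were lowest in replicate 1. BID, BCL2L1, BAX and BBC3, at 51.6%, 56.2%, 60.4% and 64.5%, were all highest there, at log2 0.34, 0.33, 0.40 and 0.34. Each of these 4 was within 0.13 (log2) of the median of all genes in its GC bin. MCL1 and BCL2 were -0.30 and -0.25, against -0.10 for their bin.

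PMAIP1 and BCL2A1 departed from their bins by more. PMAIP1 at -1.40 was below its bin median of -0.36 by a log2 difference of -1.04, and just below the 5th percentile of that bin (-1.39). BCL2A1 at -1.83 was set against a bin median of -0.98, a difference of -0.84, and inside the 5th to 95th percentile range of its bin, -2.38 to -0.09. After each library was corrected for GC, PMAIP1 had 91.2, 178 and 195 CPM and a log2 ratio of -1.03, while BCL2A1 was at -0.84 and no longer past 2-fold. The part of GC content, or of any other property of replicate 1, in these differences was not tested further.

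**Figure D5:**
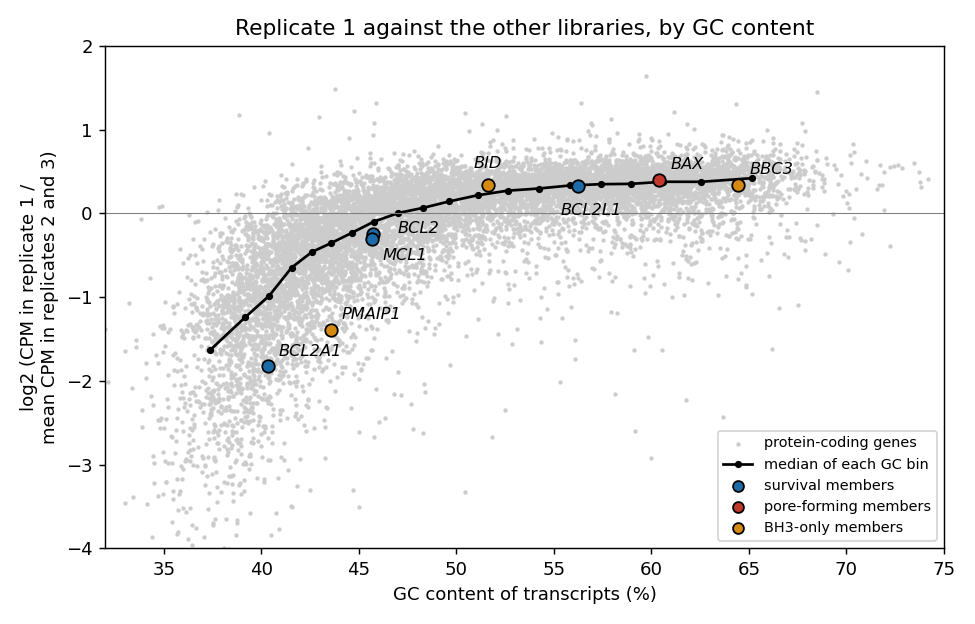
Log2 of the CPM in replicate 1 over the average of the other libraries against transcript GC content (percent) for protein-coding genes (grey), with the median of each of 20 GC bins (black) and the 8 measured members coloured by role. BID, BCL2L1, BAX and BBC3 lie near the line, and PMAIP1 (-1.40) and BCL2A1 (-1.83) lie below it; 16 genes fall outside the axes.

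The low GC content of several members lies outside the coding sequence. In the principal transcripts the coding sequence of BCL2 is 66.0% GC, that of MCL1 61.0% and that of PMAIP1 54.3%, each more than 10 percentage points above the whole transcripts of the gene. BCL2A1 differs, with 41.0% in the coding sequence and 40.3% over the transcripts. BBC3 is the richest, at 76.5% in the coding sequence.

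Replicates 2 and 3 were close for most members. The log2 ratio of replicate 3 to replicate 2 was 0.48 for BCL2A1, -0.21 for BCL2 and 0.19 for PMAIP1, and within 0.05 of 0 for MCL1, BCL2L1, BAX, BBC3 and BID. The coefficient of variation over 3 libraries was 58.7% for BCL2A1 and 45.9% for PMAIP1. It was between 11.7% and 16.7% for the other 6 measured members.

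The closest profiles over the 3 libraries were sought among 55 detected members and pathway genes, by the distance between log2 deviations from each gene's own mean. For BCL2L1 these were BIRC5, an inhibitor of apoptosis that also serves in mitosis (distance 0.0158), and BID (0.0204), against a median distance of 0.229. For MCL1 they were APAF1, the scaffold of the apoptosome (0.0456), and the ubiquitin ligase MDM2 (0.0714), against a median of 0.491. For PMAIP1 the nearest was BIRC6, a large inhibitor of apoptosis (0.061), against 1.27. The profiles rest on 3 libraries. The GC content was 41.2% for APAF1, 41.4% for MDM2 and 42.1% for BIRC6, all below that of MCL1 and PMAIP1. It was 51.9% for BIRC5 and 51.6% for BID, against 56.2% for BCL2L1. In replicate 1 against the others BCL2L1 was at log2 0.33, and the median of its GC bin was 0.33. The part of GC content in these distances was not tested.

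Other BCL2 family genes and their membrane partners were detected for 15 of 21 genes, against 51.4% of protein-coding genes. The median of the 21 was 7.14 RPKM. The highest were VDAC1, a channel of the outer mitochondrial membrane, at 133 ± 11.96 RPKM, TMBIM6 at 126 ± 8.004, BOK, a pore-forming relative of BAX and BAK1, at 74.1 ± 17.7, and BNIP3, a hypoxia-responsive mitophagy receptor, at 55.4 ± 1.63 RPKM. For comparison, BAX stood at 95.1 ± 15.9 RPKM. Other spans take in 11.5% of the exon length of BOK.

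BIK, HRK and BMF, further BH3-only genes of that list, had few reads. BIK had 24, 22 and 24 reads, HRK had 24, 15 and 29, and BMF had 11, 16 and 16, and none was detected at 1 CPM in every library. BAD stood at 4.71 ± 0.693 RPKM with 86.4% of its exons inside other spans. BCL2L2, the survival gene for BCL-W, had 4 reads per library, and 98.3% of its exon length was covered. BCL2L10 and BCL2L15 were also listed, both at 0 in every library. All exons of BCL2L15 lie inside other spans, but none of those of BCL2L10 do. In this list 2 of 15 tested genes were more than 2-fold lower in replicate 1, against 14.6% of all genes: BCLAF1 at log2 -2.68 and BNIP2 at -2.03. The medians of their GC bins were -1.63 and -1.24. Other spans take in 75.8% of the exon length of BNIP2.

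Genes that act after mitochondrial release were detected for 15 of 17, against 51.4% of protein-coding genes. The median of the 17 was 7.40 RPKM. PARP1, a DNA repair enzyme cleaved by caspases, stood at 69.8 ± 5.45 RPKM, BIRC5 at 57.1 ± 7.44, the flavoprotein AIFM1 at 26.6 ± 0.742 and CYCS, cytochrome c itself, at 25.4 ± 9.003 RPKM. DIABLO, which frees caspases from their inhibitors, and SEPTIN4 were listed at 0, both with all exons inside other spans. Of the 15 tested, 2 were more than 2-fold lower in replicate 1, among them BIRC6 (log2 -1.35), against 14.6% of all genes. The median of the GC bin of BIRC6 was -0.46.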

How the data were processed

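Poly(A) RNA libraries from 3 biological replicates of 1 treated group were used. The deposited signal is a gene count scaled by the authors with 1 factor per library, as read from the values. Whole reads were recovered within 0.01 of a read for 100% of nonzero values, with factors of 0.946, 0.971 and 1.24, and these took the place of the planned counts. The submitters' processing notes name featureCounts 2.0.0, HISAT2 2.1.0, cutadapt 1.18, FastQC and the build hg38. The sources used here do not give the annotation release, the use of strand or the way of counting. Counts of 2 were commoner than counts of 1 (1621 against 269 genes in replicate 1), so reads are not independent molecules.

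Gene IDs were matched to GENCODE 29 (96.3% matched, with 99.9% of reads), whose release need not be the authors'. That annotation gave exon lengths, spans and overlaps, and GC content was taken over all transcripts of a gene. Coordinates are GRCh38. Reads were scaled with TMM (edgeR 4.0.16, R 4.3.3), and log2 levels and ratios carry a pseudocount of 0.1 RPKM. A gene was detected at 1 CPM in every library. With 1 group no test was run. The comparison of replicate 1 with the others used protein-coding genes with a read in each library and a mean of 1 CPM, and GC correction set the median deviation per library to 0 in 20 bins. Scripts were tested on simulated data. DESeq2 1.42.0 size factors were an alternative.

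All 10 members are named. Of each wider list, the 4 highest, the 2 lowest and those past 2-fold in replicate 1 are named, as are the 2 genes nearest in profile to BCL2L1, MCL1 and PMAIP1. BAD, BIK, HRK, BMF and BCL2L2 were named after their values were seen. Members and lists were chosen with earlier results of these data known. A few genes of the fixed lists are not reported here by name; the counts include them.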

Additional observations from a re-analysis of the deposited data

How the results depend on the processing

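Results were recomputed under other scalings, lengths, pseudocounts, filters and without each library. Of 72 recomputed member levels 62 moved by less than the replicate SD; the 10 that moved were all 8 under the gene span, BCL2L1 with exons outside other spans and BCL2 at a pseudocount of 1. Of 96 recomputed ratios 75 kept their sign and their side of the spread. A call was lost once (BID/BCL2A1 without replicate 2) and gained 11 times, and 4 ratios turned: with the gene span BCL2L1/MCL1 (-3.69) and BCL2L1/BAX (-2.47), and without length scaling BCL2A1/BCL2 (-2.12) and BID/BBC3 (0.44). Another 5 changed sign with no call in either setting: BCL2L1/MCL1 without length scaling (-0.19) and without replicate 1 (-5.3e-05), MCL1/BAX without replicate 2 (-0.08) or 3 (-0.09), and BAX/PMAIP1 without replicate 1 (-0.08). The survival share was 56.6% with exons outside other spans and 51.3% with the gene span; without 1 library it ran from 47.95% to 49.0%. Members more than 2-fold apart in replicate 1 numbered 1 (PMAIP1) after GC correction, where 6.21% of 10520 genes were. Members detected were 8 under all alternatives run except 10 CPM (7). Other scalings shifted the median of all genes by at most 0.02 (log2) in any library. The span and length rows change only the divisor; other causes were not tested. Depth limits BCL2A1 most, at 61 reads in replicate 1. No paired analysis was possible because there is 1 group.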

Other observations

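Genes known to regulate the family, by transcription, turnover or cleavage, were detected for 17 of 20, against 51.4% of protein-coding genes. The median of the 20 was 10.7 RPKM. ATF4, a stress-response transcription factor that can drive PMAIP1 and BBC3, was highest at 165 ± 13.3 RPKM. DYNLL1, a dynein light chain that binds BCL2L11, followed at 65.8 ± 2.63 RPKM. The cell cycle inhibitor CDKN1A stood at 44.6 ± 9.77 RPKM and HUWE1, a ubiquitin ligase for MCL1, at 44.4 ± 2.98 RPKM. DDIT3, another stress factor, had 1, 0 and 2 reads with 86.3% of its exons inside other spans, and TP73 had 0, 0 and 4 reads. None of the 17 tested was more than 2-fold apart between replicate 1 and the other libraries, where 14.6% of all genes were more than 2-fold lower and 0.2% more than 2-fold higher.

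CASP8, the protease that cleaves BID, was also measured, with 2016, 2110 and 2476 reads and 10.3 ± 0.449 RPKM. CFLAR, which restrains CASP8, stood at 11.2 ± 0.627 RPKM. Both genes were named after their values were seen.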
